A study of Mus musculus with 23 samples.

Results

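The 8 genes described here encode basic helix-loop-helix (bHLH) transcription factors that act in sequence as neural progenitors become neurons: Neurog1 and Neurog2, Neurod4, Neurod1, Neurod2, Neurod6, Nhlh1 and Nhlh2. The rule that chose them uses family and role and no peak, although it was set with earlier results of these data known, and all 8 were found among the 21938 protein-coding genes of the annotation on the autosomes and sex chromosomes. The measurements were peak lists of 2 marks on lysine 27 of histone H3: H3K27ac, its acetylation, which goes with active promoters and enhancers, and H3K27me3, its trimethylation by Polycomb, which goes with silent genes. The cells came from the cerebral cortex of Tg(Ebf2-EGFP)FB58Gsat mouse embryos, in which a transgene with Ebf2 regulatory sequence drives EGFP, and were sorted on EGFP fluorescence. Both Ebf2-EGFP+ and Ebf2-EGFP- cells were taken at E11.5, and Ebf2-EGFP+ cells alone at the later stages E13.5 and E15.5, all from the same transgenic line and with no other treatment.

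EGFP in this line marks the earliest cortical neurons. According to the study, these are mainly preplate neurons at E11.5 and mostly Cajal-Retzius cells by E15.5, while the EGFP- cells at E11.5 are mostly progenitors. The 23 samples formed 12 groups, of which 8 were ChIP groups with 1 deposited peak list each. The groups were of 2 libraries, apart from H3K27ac in EGFP- cells, which had 1. Because a group had 1 list, and every peak in it a score of 0, no replicate error existed, depth was unknown and no difference between lists could be tested. Every comparison here is a description of called peaks, and a missing peak says only that none was called.

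As background, the neurogenins are proneural factors: they start neuronal differentiation in dividing progenitors of the dorsal telencephalon and switch on Notch ligands and further bHLH genes. Neurod4 and Neurod1 act next, in cells that are leaving the cycle, and Neurod2 and Neurod6 are used by postmitotic glutamatergic neurons. Nhlh1 and Nhlh2 are expressed in newly formed neurons. All of these proteins bind DNA as dimers, usually with a widely expressed E protein, at the E-box, CANNTG.

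The lists differed widely in length, and this sets what can be compared. The H3K27ac lists held 1386 peaks in EGFP- cells at E11.5, and 37055, 102881 and 25793 in EGFP+ cells in order of stage. The H3K27me3 lists held 48963 peaks in EGFP- cells, and 6387, 6721 and 1438 in EGFP+ cells by stage. Median peak width was between 138 and 284 bp. The sort labels were checked against marker genes: none of the 7 progenitor markers had an H3K27ac peak within 5 kb of its transcription start site (TSS) in the EGFP- list, whereas 5, 6 and 4 of them did in the EGFP+ lists by stage, among them Hes5 and Vim in all 3. Of the 6 neuron markers, none had one in the EGFP- list and 5, 4 and 5 did in the EGFP+ lists. Of the 6 Cajal-Retzius markers, 5, 6 and 4 had one in EGFP+ cells and 1, Reln, in EGFP- cells. The markers of interneurons (4, 5 and 3 of 5), endothelium (1, 2 and 0 of 4), blood and microglia (1, 3 and 1 of 5) and mesenchyme (2, 3 and 1 of 4) also had H3K27ac peaks in EGFP+ cells. Of all protein-coding genes, 4.17% had such a peak in the EGFP- list and 49.9%, 60.9% and 52.3% in the EGFP+ lists, and lists of 6 or 7 genes do not settle the labels. H3K27me3 near the TSS was called in the EGFP- list at 4 of 7 progenitor markers and 4 of 6 neuron markers, and at 48.2% of all genes. In EGFP+ cells at E11.5 it was called at 0 of 7 and 0 of 6, and at 4.92% of all genes. The part of other cell types in the peaks below was not tested.

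Some stretches of DNA where peaks of several lists met are printed first. Peaks of several lists met over each of 4 coding stretches, in 4 different members. Of these stretches, 3 held the codons of the basic region, the part of the bHLH domain that contacts DNA. How often this occurs at other genes was not counted, so it is not read as particular to the members. Of the members' TSS peaks, 40.0% overlapped the member's own coding sequence, against 35.9% across all protein-coding genes. For Neurog2 (chr3:127633961-127634113, + strand) the stretch lay in H3K27ac peaks of EGFP+ cells at E11.5 and E15.5 and in the H3K27me3 peak of EGFP- cells. For Neurod2 (chr11:98327895-98328030, - strand) it lay in H3K27ac peaks of all 3 EGFP+ stages and an H3K27me3 peak of EGFP- cells. For Nhlh2 (chr3:102012845-102013013, + strand) it lay in all 4 H3K27ac lists, EGFP- cells included. A coding stretch of Neurod1 (chr2:79454251-79454440, - strand), which does not hold its basic region, lay in H3K27ac peaks of the 3 EGFP+ stages and in an H3K27me3 peak of E13.5. Each is written 5′ to 3′ on the gene's strand from RefSeq's GRCm38 sequence, with E-boxes in capitals.
Neurog2, coding: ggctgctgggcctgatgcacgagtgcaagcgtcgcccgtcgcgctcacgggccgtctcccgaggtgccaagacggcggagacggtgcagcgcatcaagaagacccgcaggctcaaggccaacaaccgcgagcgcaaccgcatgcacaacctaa
Neurod2, coding: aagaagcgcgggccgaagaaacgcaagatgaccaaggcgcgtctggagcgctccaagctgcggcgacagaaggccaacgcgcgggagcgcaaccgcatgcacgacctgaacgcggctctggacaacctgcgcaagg
Nhlh2, coding: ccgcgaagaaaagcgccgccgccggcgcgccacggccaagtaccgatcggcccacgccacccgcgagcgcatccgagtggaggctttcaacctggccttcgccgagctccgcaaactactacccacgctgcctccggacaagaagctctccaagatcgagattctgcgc
Neurod1, coding: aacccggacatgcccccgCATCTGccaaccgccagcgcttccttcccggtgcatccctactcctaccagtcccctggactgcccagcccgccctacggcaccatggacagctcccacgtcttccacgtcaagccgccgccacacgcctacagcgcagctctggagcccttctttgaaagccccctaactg
The GC content of these 4 stretches was between 65.3% and 66.7%.

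Outside transcribed sequence, 4 further stretches where peaks of more than one list met are shown as examples. Other such stretches of the members are not printed, and the E-box counts below cover these 4 only. The stretch upstream of Neurog1 (chr13:56252432-56252623, - strand) lay in an H3K27me3 peak of EGFP- cells and an H3K27ac peak of E13.5. The stretch upstream of Nhlh1 (chr1:172060844-172060973, - strand) lay in an H3K27me3 peak of EGFP- cells and an H3K27ac peak of EGFP+ cells at E11.5. Both stretches upstream of Neurod2 (chr11:98334257-98334424, the proximal one, and chr11:98338731-98338803, the distal one, - strand) lay in H3K27ac peaks of all 3 EGFP+ stages.
Neurog1, upstream: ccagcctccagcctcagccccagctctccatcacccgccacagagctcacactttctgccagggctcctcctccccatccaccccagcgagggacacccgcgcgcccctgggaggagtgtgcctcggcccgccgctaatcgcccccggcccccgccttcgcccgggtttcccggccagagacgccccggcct
Nhlh1, upstream: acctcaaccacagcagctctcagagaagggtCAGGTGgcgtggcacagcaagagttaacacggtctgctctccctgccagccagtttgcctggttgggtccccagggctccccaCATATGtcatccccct
Neurod2, proximal: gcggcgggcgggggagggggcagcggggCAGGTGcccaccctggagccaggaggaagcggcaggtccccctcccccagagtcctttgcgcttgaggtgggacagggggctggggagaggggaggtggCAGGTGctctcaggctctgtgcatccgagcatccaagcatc
Neurod2, distal: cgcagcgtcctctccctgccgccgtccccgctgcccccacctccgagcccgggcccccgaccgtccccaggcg
E-boxes (CANNTG reads the same on both strands) numbered 2 in the Nhlh1 stretch, 2 in the proximal Neurod2 stretch and 0 in each of the others here. At least 1 was present in 48.5% and 56.9% of windows of those lengths centred on the H3K27ac peaks of EGFP+ cells at E11.5, so their presence is common in such peaks.

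The first comparison asked which members had a peak within 5 kb of the TSS in each list. For H3K27ac, 1 of 8 members had one in EGFP- cells at E11.5, where 4.17% of all protein-coding genes did. In EGFP+ cells the counts were 6 of 8 at E11.5 (49.9% of all genes), 7 of 8 at E13.5 (60.9%) and 5 of 8 at E15.5 (52.3%). For H3K27me3, 6 of 8 members had one in EGFP- cells (48.2% of all genes), 0 of 8 in EGFP+ cells at E11.5 (4.92%), 2 of 8 at E13.5 (9.31%) and 1 of 8 at E15.5 (1.06%). In the long lists between 48.2% and 60.9% of all genes were marked as well, and with 8 members these counts are not read as particular to them. When each list was cut to its widest peaks, 1386 for H3K27ac, the members marked were 1 in EGFP- cells and 1, 0 and 1 in EGFP+ cells by stage. The uncut EGFP- list of that length marks only 4.17% of all genes. With 8 members such short lists cannot show a difference between EGFP- and EGFP+ cells, and no conclusion is drawn from the cut.

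**Figure D1:**
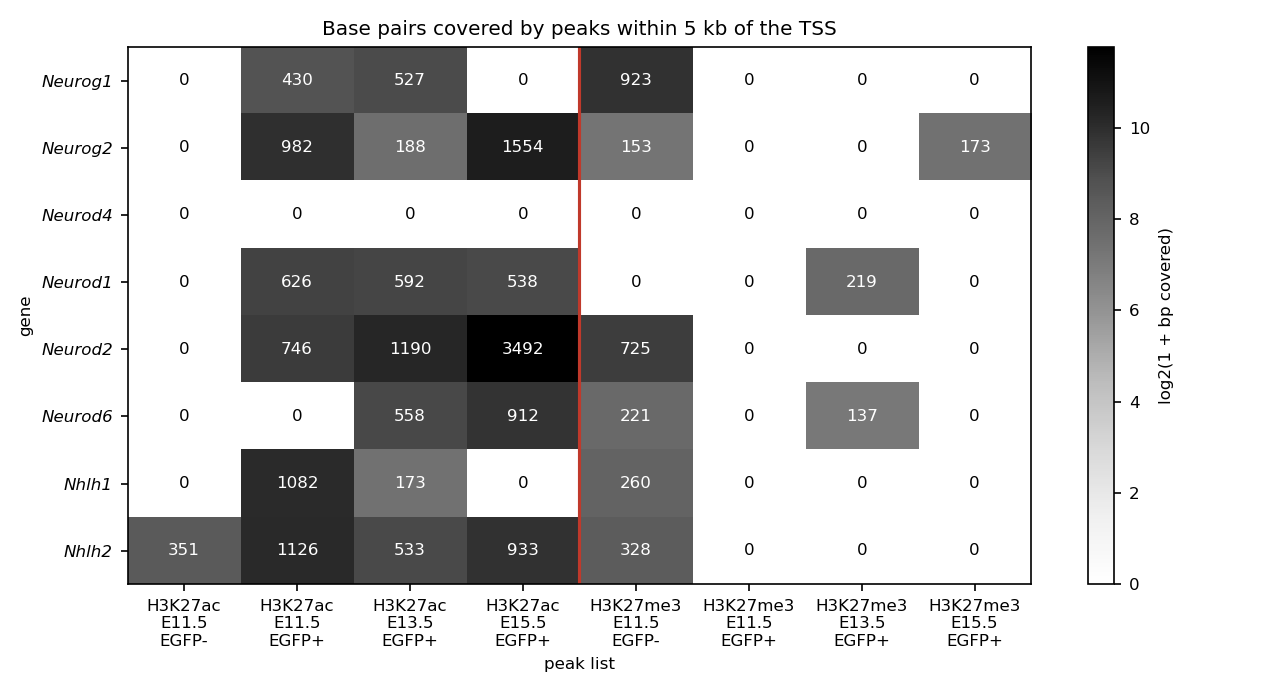
Base pairs covered by peaks within 5 kb of the TSS, for each member (rows) and list (columns, H3K27ac left of the red line and H3K27me3 right of it), with shading on a log2 scale. Neurod4 was at 0 throughout, Neurod2 reached 3492 bp of H3K27ac at E15.5, and no member had H3K27me3 in EGFP+ cells at E11.5.

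Both marks together were examined next. H3K27me3 in EGFP- cells and H3K27ac in EGFP+ cells at E11.5 were found at 5 members, Neurog1, Neurog2, Neurod2, Nhlh1 and Nhlh2, and at 34.8% of all genes. H3K27ac in all 3 EGFP+ lists was found at 4 members, Neurog2, Neurod1, Neurod2 and Nhlh2, and at 33.1% of all genes. Both marks in the same cell group were found at Nhlh2 in EGFP- cells (3.42% of all genes), at no member in EGFP+ cells at E11.5 (3.56%), at Neurod1 and Neurod6 at E13.5 (8.39%) and at Neurog2 at E15.5 (0.752%). Neurod4 alone had no TSS peak in any list, as did 22.7% of all genes. Of the 11 H3K27me3 peaks that the members had near the TSS in EGFP- cells, 5, 7 and 6 overlapped an H3K27ac peak of EGFP+ cells by stage, against 43.0%, 46.0% and 48.2% of all such peaks near protein-coding genes.

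**Figure D2:**
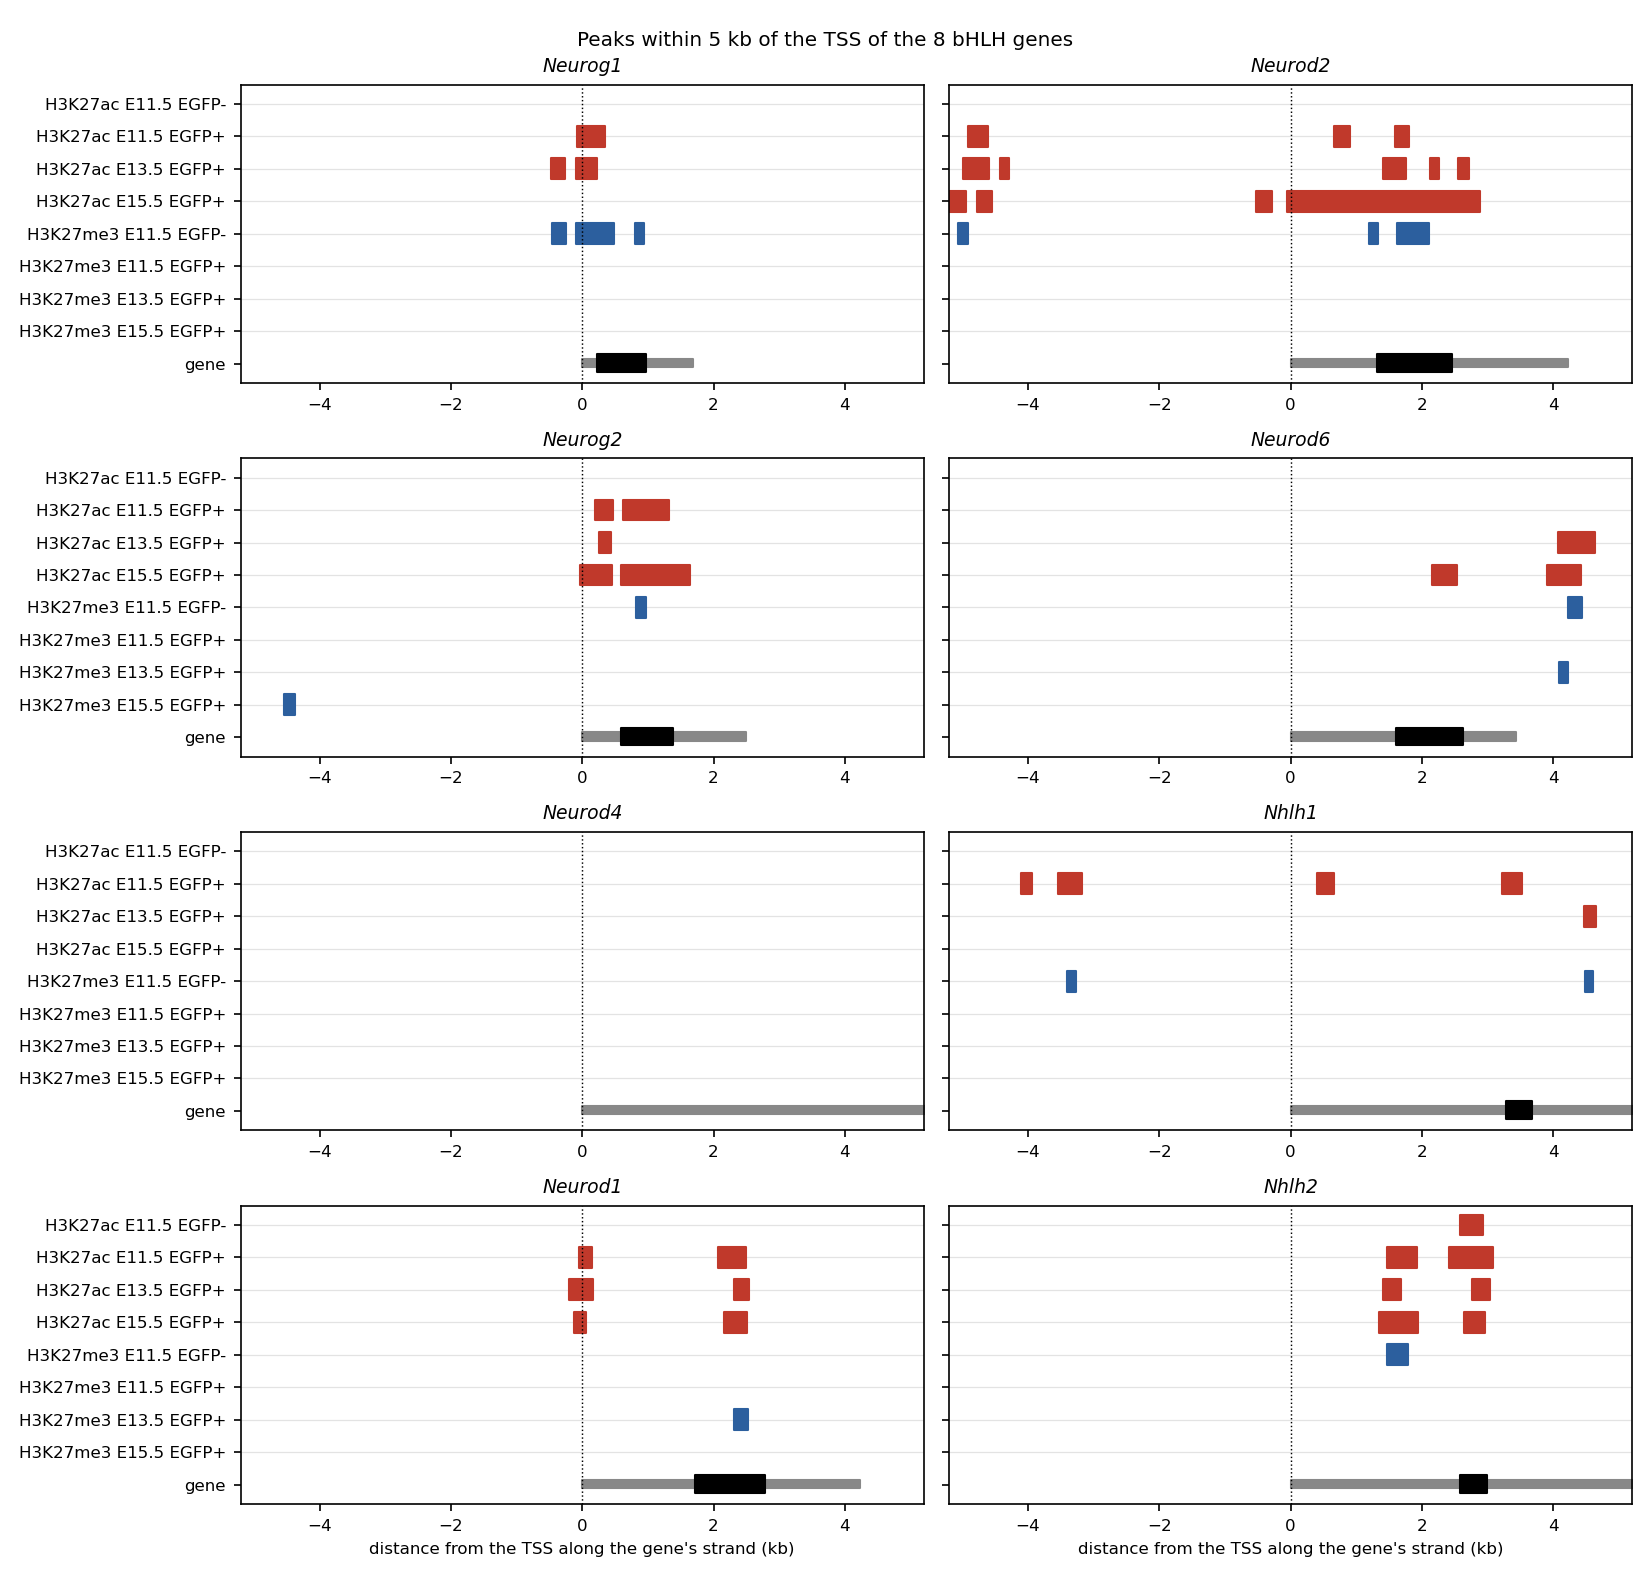
Peaks within 5 kb of the TSS of each member, by list, on an axis of distance from the TSS in kb along the gene's strand. Red bars are H3K27ac peaks, blue bars H3K27me3 peaks, drawn to scale; the grey bar is the gene and the black bar runs from its first to its last coding base.

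Neurog1 (ENSMUSG00000048904.5, chr13:56250478-56252163, - strand), a gene of 1 exon, carried H3K27me3 in EGFP- cells and H3K27ac in EGFP+ cells at the same place. In EGFP- cells 3 H3K27me3 peaks covered 923 bp, more than in 98.5% of all genes, and the widest, 570 bp, ran from -88 to +481 relative to the TSS. The H3K27ac peak of EGFP+ cells at E11.5 was 430 bp wide and ran from -77 to +352, and the wider of 2 at E13.5 was 313 bp and ran from -92 to +220. All 3 lay over the start site and the 5′ UTR. At E15.5 no H3K27ac peak was called within 5 kb, and no H3K27me3 peak was called there in EGFP+ cells at any stage. The same pattern of presence over the 8 lists was found at 673 other genes (3.07%), Nhlh1 among them.

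Neurog2 (ENSMUSG00000027967.8, chr3:127633135-127635631, + strand), the main proneural factor of the dorsal cortex, had H3K27ac in EGFP+ cells at all 3 stages. The coverage was 982 bp at E11.5, 188 bp at E13.5 and 1554 bp at E15.5, so E13.5 was lowest although its list was longest. The widest peak at E11.5, 710 bp from +618 to +1327, and that at E15.5, 1054 bp from +586 to +1639, both lay over the coding exon. At E13.5 the one peak, 188 bp from +253 to +440, lay over the 5′ UTR and the intron, where peaks of the other two stages overlapped it. In EGFP- cells the only mark was H3K27me3, in 1 peak of 153 bp from +826 to +978, the coding stretch printed above. A further H3K27me3 peak, 173 bp from -4538 to -4366, was called at E15.5, away from the H3K27ac peaks, which is why Neurog2 counts as having both marks there.

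Neurod4 (ENSMUSG00000048015.4, chr10:130268152-130280240, - strand) stood apart in having no peak of either mark within 5 kb in any list. Its coding sequence begins 8837 bp from the TSS, outside that window, and no peak was called there either. Over the 8 lists it had 4 peaks within 100 kb, all distal. An H3K27ac peak of E13.5 overlapped an H3K27me3 peak of EGFP- cells at -22800 to -22565, and the other H3K27ac peak, at E11.5, lay 82.9 kb away. The GC content of its 10 kb window was 37.1%, lower than in all but 4.75% of genes, where the median gene had 45.6% and the TSS peaks of the members had a median of 66.0%. The part of base composition in this absence was not tested.

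Neurod1 (ENSMUSG00000034701.9, chr2:79452521-79456751, - strand), a target of neurogenins that drives terminal differentiation, had H3K27ac at 2 places in all 3 EGFP+ lists and nothing in EGFP- cells. Coverage was 626 bp at E11.5, 592 bp at E13.5 and 538 bp at E15.5. These values were more than in 86.0%, 84.4% and 68.1% of all genes by stage. Peaks over the start site were 200, 363 and 184 bp wide by stage, and those over the coding exon 426, 229 and 354 bp. Its TSS lies 34 bp from an annotated start of Cerkl on the same strand, so the peaks over the start site cannot be assigned to one of the genes. It was 1 of 2 members without H3K27me3 near the TSS in EGFP- cells, the other being Neurod4. At E13.5 an H3K27me3 peak of 219 bp from +2311 to +2529 lay over the coding exon, nearly the same stretch as the H3K27ac peak of that stage from +2310 to +2538. The 2 marks were thus called over one stretch in one cell group, in separate ChIPs of a cell population, which cannot tell cells with both from a mixture.

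Neurod2 (ENSMUSG00000038255.6, chr11:98325415-98329648, - strand), a factor of postmitotic glutamatergic neurons, had the most peaks of the 8 near the TSS, 12 of H3K27ac and 3 of H3K27me3 over the lists. Its H3K27ac coverage was 746 bp at E11.5, 1190 bp at E13.5 and 3492 bp at E15.5, and the last was more than in 99.9% of all genes. At E15.5 a single peak of 2946 bp ran from -54 to +2891, over the start site, the intron and all of the coding sequence, whereas the widest at E11.5 was 296 bp, from -4904 to -4609, and the widest at E13.5 was 394 bp, from -4981 to -4588. These upstream peaks, and one of E15.5, overlapped each other. In EGFP- cells there was H3K27me3 only: 3 peaks that covered 725 bp, the widest of them 491 bp over the coding exon from +1618 to +2108.

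Neurod6 (ENSMUSG00000037984.9, chr6:55677822-55681263, - strand), another factor of postmitotic projection neurons, was the one member whose H3K27ac near the TSS was called at E13.5 and E15.5 but not at E11.5. The peak of E13.5, 558 bp from +4078 to +4635, and the wider one of E15.5, 524 bp from +3906 to +4429, overlapped beyond the 3′ end of the gene. The second peak at E15.5, 388 bp from +2153 to +2540, lay over the coding exon, and none of these reached the start site. H3K27me3 was called at the same downstream place in EGFP- cells, 221 bp from +4219 to +4439, and in EGFP+ cells at E13.5, 137 bp from +4096 to +4232. No other protein-coding TSS lies within 100 kb of this gene.

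Nhlh1 (ENSMUSG00000051251.3, chr1:172052292-172057573, - strand) had, within 5 kb of its TSS, 4 H3K27ac peaks in EGFP+ cells at E11.5 that covered 1082 bp, 1 at E13.5 of 173 bp, and none at E15.5. The widest at E11.5, 368 bp from -3540 to -3173, lay upstream and held an H3K27me3 peak of EGFP- cells, 130 bp from -3400 to -3271. Of the other 3 at E11.5, one lay over the coding exon, one in the intron and one upstream. The peak of E13.5, from +4476 to +4648, lay over the 3′ UTR and held the second H3K27me3 peak of EGFP- cells, also 130 bp wide. None of these peaks lay over the start site, and no place within 5 kb had H3K27ac at more than 1 stage.

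Nhlh2 (ENSMUSG00000048540.8, chr3:102010076-102015492, + strand) was the only member with H3K27ac in EGFP- cells, a peak of 351 bp from +2587 to +2937. This was more coverage than in 99.1% of genes in that list, which is so short that 4.17% of genes have any. The peak lay inside the coding sequence and overlapped H3K27ac peaks of all 3 EGFP+ stages, the one at E11.5 being the widest, 676 bp from +2406 to +3081. A second place, within the 5′ UTR of the annotation used, had H3K27ac of 450, 263 and 607 bp in EGFP+ cells by stage and H3K27me3 of 328 bp, from +1465 to +1792, in EGFP- cells. Total H3K27ac coverage was 351 bp in EGFP- cells, and 1126, 533 and 933 bp in EGFP+ cells by stage. In EGFP- cells the 2 marks were thus called at separate places of one gene.

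Over all members, the 55 TSS peaks joined into 21 places when peaks that shared at least 1 bp were merged. Of these, 13 were in 2 or more lists, 7 had H3K27ac at all 3 EGFP+ stages and 10 had both marks in one list or another. Such places were not counted for all genes. Of the 55 peaks, 22 overlapped the member's own coding sequence (40.0%), 22 a UTR and 17 lay wholly outside the gene. Across all protein-coding genes 35.9% of TSS peaks overlapped the gene's own coding sequence, so this too is close to the background. The median GC content of the members' TSS peaks was 65.9%, 66.2% and 65.4% in the H3K27ac lists of EGFP+ cells by stage and 66.7% in the H3K27me3 list of EGFP- cells, against 66.1%, 61.4%, 64.9% and 65.5% for all genes.

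**Figure D3:**
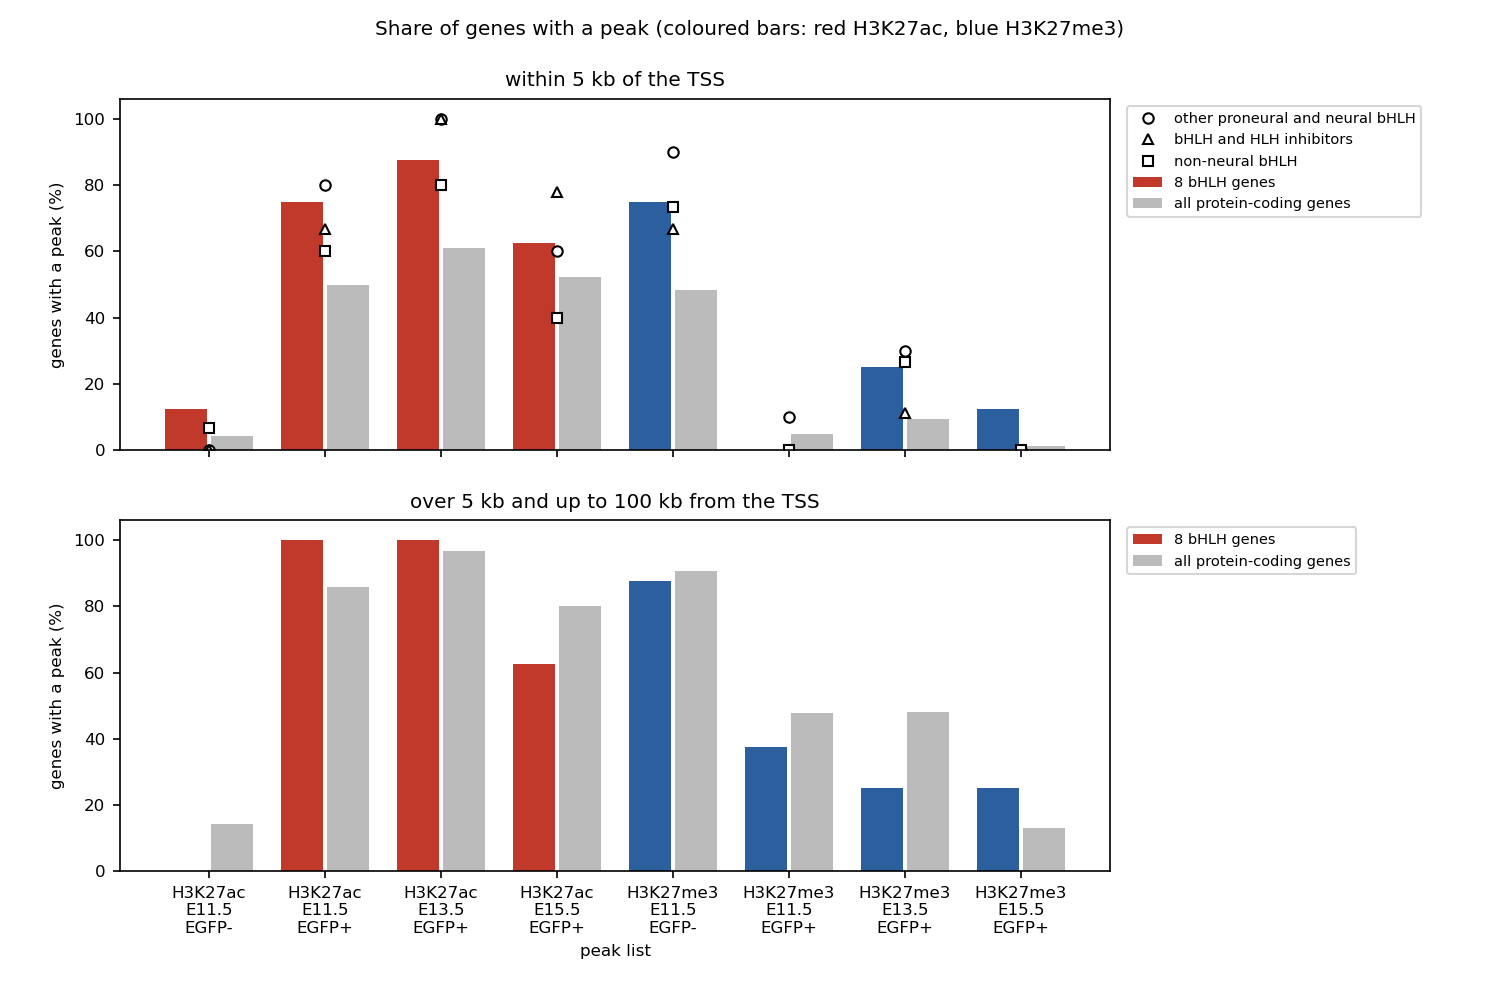
Share of genes, in percent, with a peak within 5 kb of the TSS (upper panel) and over 5 kb and up to 100 kb away (lower panel), by list. Coloured bars are the 8 members, grey bars all 21938 protein-coding genes, and open symbols in the upper panel are other gene lists. Near the TSS, in H3K27ac of EGFP+ cells and H3K27me3 of EGFP- cells, the members sat above the grey bars, as did the other bHLH lists except the non-neural one at E15.5 (40.0%).

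Other bHLH genes were marked about as often as the members. For the counts below, 49.9%, 60.9% and 52.3% of all genes had H3K27ac near the TSS in EGFP+ cells by stage. In EGFP- cells 48.2% of all genes had H3K27me3 there and 4.17% H3K27ac. Among 10 other neural bHLH genes, Olig2 and Bhlhe22 included, 8, 10 and 6 had H3K27ac near the TSS in EGFP+ cells by stage and 9 had H3K27me3 in EGFP- cells. The 3 E proteins, the usual dimer partners, had H3K27ac at all 3 stages and H3K27me3 in EGFP- cells, and Tcf4 and Tcf12 also had H3K27ac in EGFP- cells. Among 9 inhibitors, the Id proteins that sequester E proteins and the Hes and Hey repressors, H3K27ac was found at 6, 9 and 7 by stage and H3K27me3 in EGFP- cells at 6. Of 12 genes known as targets of proneural factors in the cortex, 10, 10 and 11 had H3K27ac by stage and 11 had H3K27me3 in EGFP- cells. Dcx was the target with no peak near the TSS in any list. The 15 bHLH genes listed for their roles in muscle, blood and mesoderm, some of which also act in certain neurons, had H3K27ac at 9, 12 and 6 by stage, Myod1 at E13.5 and E15.5 among them, and H3K27me3 at 11 in EGFP- cells. H3K27ac near the TSS in these lists was thus also called at bHLH genes such as Myod1, the muscle determination factor.

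The genes most like a member were taken as those with the smallest Euclidean distance in log2(1 + bp covered near the TSS) over the 8 lists. For Neurog2 they were Gpaa1 (distance 1.36), Thtpa and Zfhx2 (both 1.39, with the same coverage as each other in every list). Closest to Neurod1 was Cerkl at 0.00, since the 2 windows hold the same peaks, followed by Zfp688 (0.61) and Adipor1 (0.71). For Nhlh2 they were Lats1 and Pcmt1 (both 0.57, again with equal coverage) and Rfx1 (0.69). None of these is a bHLH gene.

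The second comparison took distal peaks, over 5 kb and up to 100 kb on either side of the TSS. No member had a distal H3K27ac peak in EGFP- cells, where 14.2% of all genes did. In EGFP+ cells 8 of 8 had one at E11.5 (85.7% of all genes), 8 of 8 at E13.5 (96.8%) and 5 of 8 at E15.5 (80.1%), and the members without one at E15.5 were Neurod4, Neurod1 and Neurod6. The median number per member was 5.5, 6 and 3.5 by stage, against 4, 10 and 3 for all genes. Distal H3K27me3 was found at 7 of 8 members in EGFP- cells (90.7% of all genes), with a median of 3.5 against 5, and in EGFP+ cells at 3 members at E11.5 (47.8%), 2 members at E13.5 (48.1%) and 2 members at E15.5 (13%).

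**Figure D4:**
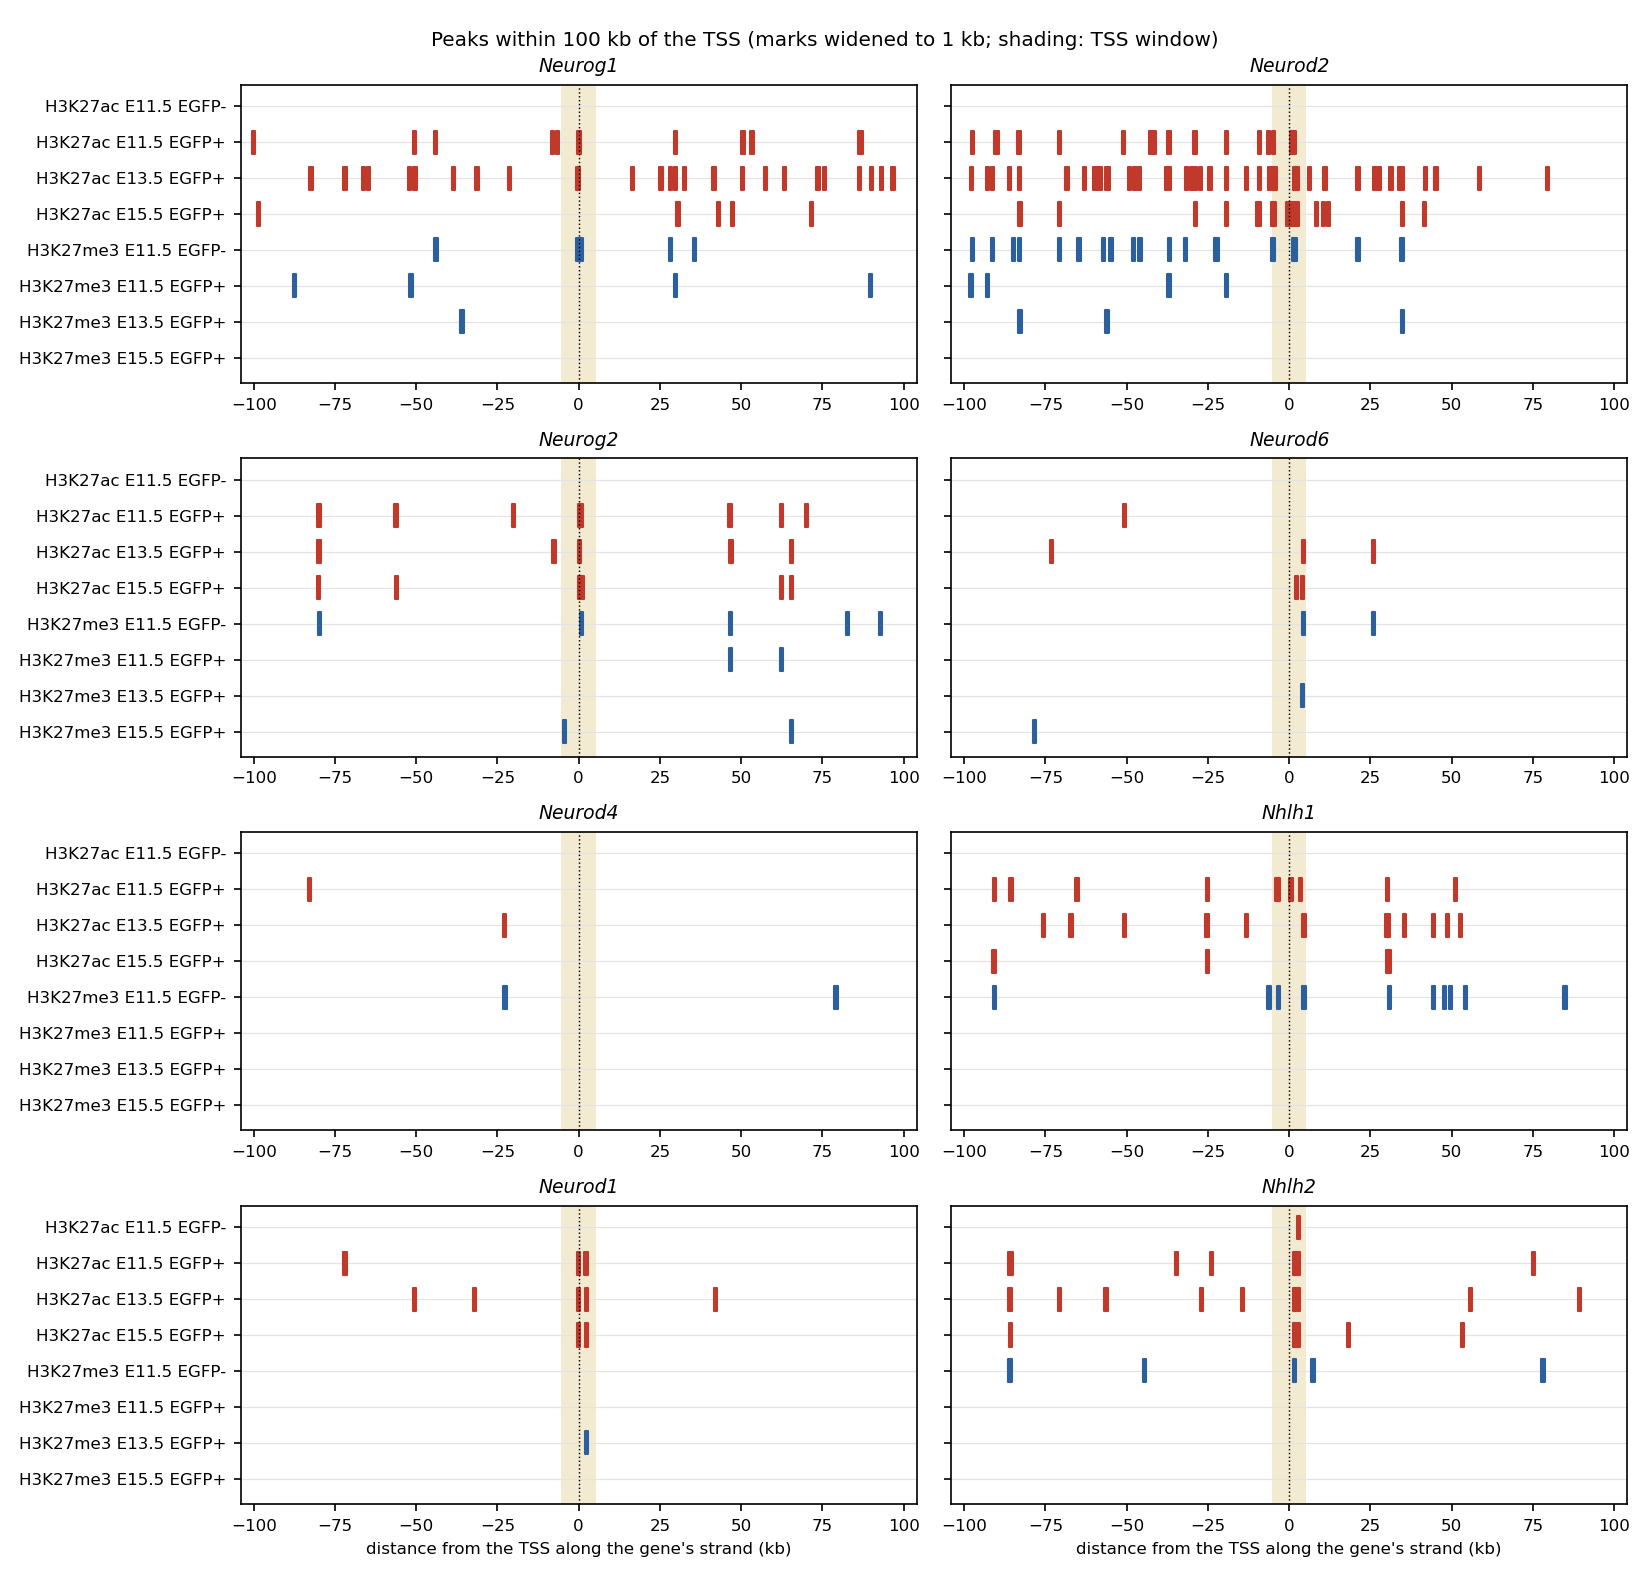
Peaks within 100 kb of the TSS of each member, by list, against distance from the TSS in kb along the gene's strand, with the 5 kb window shaded. Each peak is drawn at least 1 kb wide so that it can be seen. Neurog1 and Neurod2 had many distal H3K27ac peaks (red), Neurod4, Neurod1 and Neurod6 few.

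The members differed widely from each other in distal peaks. Neurod2 had 13, 39 and 11 distal H3K27ac peaks in EGFP+ cells by stage, and 17 H3K27me3 peaks in EGFP- cells. Its count at E13.5 was higher than that of 93.5% of all genes. Neurog1 followed with 10, 24 and 5 H3K27ac peaks and 3 H3K27me3 peaks in EGFP- cells. Nhlh1 had 6, 11 and 4, Neurog2 6, 5 and 4, and Nhlh2 5, 7 and 3.

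At the low end, Neurod1 had 1, 3 and 0 distal H3K27ac peaks by stage, Neurod6 1, 2 and 0, and Neurod4 1, 1 and 0. Neurod1 had no distal H3K27me3 peak in any list. Neurod1 and Neurod6 had H3K27ac near the TSS at E15.5 with no distal peak. Neurog1 and Nhlh1 had distal H3K27ac peaks at E15.5 with none near the TSS. Neither combination was counted for all genes, of which 52.3% had H3K27ac near the TSS and 80.1% a distal peak at E15.5. They are therefore not read as particular to these members. The 4 distal peaks of Nhlh1 at E15.5 all lay within 5 kb of another gene's TSS, and 4 of the 5 of Neurog1 did not. Other genes lie in some of these windows: Neurod2 has 6 other protein-coding TSS within 100 kb, Nhlh1 5 and Neurod6 0, and the median gene has 3. Of 162 distal H3K27ac peaks of the members, 113 lay over 5 kb from any other protein-coding TSS. A distal peak is tied to a member by distance alone, since no measure of contact was used.

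Distal places shared between lists were counted for the members only, so no share of all genes stands beside these counts. The members' distal peaks joined into 156 places, of which 122 were in 1 list only, 34 in 2 or more, and 8 had H3K27ac at all 3 EGFP+ stages. These belonged to Neurog2, Nhlh2, Nhlh1 and Neurod2, and Neurog1, Neurod4, Neurod1 and Neurod6 had none. For Neurog2 the place was at -80145 to -79755, over the start of Larp7, and for Nhlh2 at -86246 to -85298, over the start of Slc22a15. Nhlh1 had one at -25711 to -24731, over the starts of Copa and Ncstn, and one at +29844 to +30638, 715 bp from that of Vangl2. For Neurod2, 4 places qualified: 3 lay at or within 266 bp of the start of another gene, and the nearest, at -9425 to -8890, lay 9331 bp from any other start. That place, chr11:98338538-98339073, was thus the only one of the 8 away from every other protein-coding TSS, and its 73 bp common to the 3 stages are printed above.

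Distal places with both marks also occurred at Neurog2. At +46344 to +46853 peaks of H3K27ac at E11.5 and E13.5 overlapped H3K27me3 peaks of EGFP- cells and of EGFP+ cells at E11.5. At +62314 to +62575 H3K27ac of E11.5 and E15.5 overlapped H3K27me3 of EGFP+ cells at E11.5, and at +65313 to +65518 H3K27ac of E13.5 and E15.5 overlapped H3K27me3 of E15.5. Each of these places lay inside the gene Alpk1, the first 2 over its exons, and at least 81874 bp from any other protein-coding TSS. Neurod6 had one place shared by lists, at +25841 to +26079, with H3K27ac of E13.5 and H3K27me3 of EGFP- cells. The place of Neurog2 over the start of Larp7 also held H3K27me3 of EGFP- cells. Over all members 25 distal places had both marks, 105 H3K27ac only and 26 H3K27me3 only. Neurod2 had more of those with both marks than any other member. These counts, too, were not made for all genes.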

How the data were processed

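ChIP-seq was performed for H3K27ac and H3K27me3 in FACS-sorted Ebf2-EGFP+ and Ebf2-EGFP- cells. Reads were aligned to mm10 with Bowtie 1.1.2 (also named in the submitters' processing notes), and the authors called peaks with MACS on a p-value threshold. The version of MACS, the control and any pooling of replicates are not given in the sources used here. In the lists the authors deposited, the score of each peak was 0. The values used were peak positions, read as counted from 0 and printed from 1. Peak ends on the autosomes and sex chromosomes lay within the GRCm38 chromosomes. Peaks on other sequences, at most 9 in a list, were not checked.

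Here, peaks were assigned with Python 3.11.15 and numpy 2.4.6 to protein-coding genes of GENCODE M21, as TSS peaks (up to 5 kb from the TSS) or distal peaks (over 5 kb, up to 100 kb). Counting was tested on simulated peaks. Sequences came from RefSeq's GRCm38.p6 with samtools 1.23.1. No test was run, as each group had 1 list. The members and gene lists were chosen with earlier results of these data known. Named were all members, the 3 nearest genes for Neurog2, Neurod1 and Nhlh2, the widest TSS peaks and the shared distal places, and other peaks were named after their values were seen. Alternatives were a 1 kb TSS window, a 50 kb distal limit, peaks away from other TSS, peaks of at least 300 bp, equal list lengths, any annotated transcript start as TSS, and peaks within 1 kb merged. Input samples were not used.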

Additional observations from a re-analysis of the deposited data

How the results depend on the processing

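The counts depended on the windows and on list length. No share of all genes stands beside the alternative counts, so the changes are not read as particular to the members. With a TSS window of 1 kb, members with a TSS peak numbered 0 for H3K27ac in EGFP- cells, 3 and 3 in the EGFP+ lists of E13.5 and E15.5, and for H3K27me3 2 in EGFP- cells and 0 and 0 at the same stages. With a distal limit of 50 kb, 5 members had distal H3K27ac at E11.5, the medians were 2, 2.5 and 0.5 by stage and 1.5 for H3K27me3 in EGFP- cells, and 0 members had distal H3K27me3 at E15.5. Without peaks near other TSS, the medians were 1.5 at E11.5, 1 at E15.5 and 2 for H3K27me3 in EGFP- cells. With peaks of at least 300 bp, TSS counts were 4 for H3K27ac at E13.5 and 3, 0 and 0 for H3K27me3 in EGFP- cells and the EGFP+ lists of E13.5 and E15.5. Distal counts were then 5 and 5 for H3K27ac at E11.5 and E13.5 and 1, 0, 0 and 0 for H3K27me3, with medians of 1, 1.5 and 1 for H3K27ac by stage and 0 for H3K27me3 in EGFP- cells. With the 1386 or 1438 widest peaks of each list, TSS counts were 1, 0 and 1 for H3K27ac in EGFP+ cells by stage and 1 and 1 for H3K27me3 in EGFP- cells and at E13.5. Distal counts were 1, 0 and 0 for H3K27ac and 0 and 1 for H3K27me3 in the same lists, with medians of 0. These are 43 of 120 alternative values, and the other 77 stayed within 1.5 times the main value. Depth is unknown, so a list's length cannot be set against it. No paired analysis was possible because each group had 1 list. No replicate could be left out for the same reason.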

Other observations

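RefSeq's promoter table, from 250 bases before to 50 after each start on GRCm38.p6, held all 8 members. An E-box, CANNTG, was present in 69.0% of the 21263 promoters of protein-coding genes. The promoters held 1 E-box for Neurog1, 0 for Neurog2, 1 for Neurod1, 3 for Neurod2, 2 for Neurod6, 2 for Nhlh1 and 4 for Nhlh2, and for Neurod4, which has 2 entries, 0 and 1. The form CAGATG, searched on both strands, was present once each in Neurod2, Nhlh1 and Nhlh2 and in 14.6% of all promoters. Of the 3 with this form, none had a peak over the start site used here except Neurod2, with the wide H3K27ac peak of E15.5. Nhlh2 has 3 annotated transcript starts, of which the first was used. Neurog1, Neurog2 and Neurod1, whose promoters lack this form, also had peaks over the start site. Neurod4 and Neurod6, whose promoters lack it too, had none there. Peaks over the start site were not counted for all genes, so no relation to this form is read from the members.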
